A study of Mus musculus with 16 samples.

Results

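The genes described here were 36 interferon-stimulated genes (ISGs) of the type I interferon program in mouse muscle. They were taken as the entries of the normalized count table whose gene symbol equals a listed name. That match uses no measured value, but the list was chosen with earlier results of these data known. All 36 were found among 26382 genes, and all 36 passed a filter of a mean of at least 0.5 normalized counts over the 16 libraries, which left 16414 genes for testing. Type I interferons are secreted antiviral cytokines that act through a receptor made of IFNAR1 and IFNAR2, whose associated kinases phosphorylate STAT2 and other factors. A complex that contains STAT2 and IRF9 then binds interferon-stimulated response elements (ISREs) and raises transcription of ISGs, which sense viral RNA, degrade it or block its translation. Interferon-gamma, the type II interferon, acts through gamma-activated sequences (GAS elements), and many ISGs respond to both types.

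Hamstring muscle was analysed as poly(A)-selected bulk RNA in 16 libraries from 9 mice, which were C57BL/6 females aged 8 to 10 weeks, at day 14 after intramuscular injection. Recombinant histidyl-tRNA synthetase (HRS, the Jo-1 autoantigen), at 3 to 5 mg/mL and 50 µL per side, is given to induce myositis, and control muscle received phosphate-buffered saline (PBS). The groups were 5 left legs labelled as HRS-injected (mice m862 to m866), the PBS-injected right legs of those 5 animals (contralateral legs), 4 legs of 2 mice that received PBS only (m867 and m868), and 2 libraries from mice given an MBP fusion of the protein at 2 to 3 mg/mL (m860 and m861, leg not given, called HRS-MBP below). The treatment text describes injection of both sides whereas the titles separate an injected from a PBS leg, and the titles were followed. The labels name no transgene or deletion in any group, and the 4 PBS-only legs come from 2 animals, so that their spread is partly one between legs.

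Whole libraries differed by treatment. The summed level of 10 muscle fibre markers was 126640 to 207670 normalized counts in PBS legs of both kinds, 43011 to 173830 in HRS legs and 68264 to 70027 in HRS-MBP. The sum of 5 pan-leukocyte markers was 22.4 to 61.8 in PBS legs, 271 to 1287 in HRS legs and 1060 to 1326 in HRS-MBP. All 5 were called higher in HRS than in contralateral legs, against 16.9% of all tested genes. In bulk tissue, a change in the number of cells that express an ISG and a change in RNA per cell cannot be told apart, and the part of infiltrating cells in each result below was not tested. The HRS leg of m866 stood apart from the other 4 HRS legs, with a leukocyte sum of 271 against 546 to 1287 and a muscle fibre sum of 173830 against 43011 to 104650. Totals were 726797 to 1252360 normalized counts per library. The depth implied by the smallest steps between low values ranged from 8595360 reads (right leg of m868) to 73942600, and 3 reads corresponded to 0.0324 to 0.364 normalized counts.

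The promoter sequences below are shown because ISRE cores are the letters through which the complex with STAT2 and IRF9 is known to act, and because the pair Ifit3 and Ifit3b, of which the first was called higher in HRS legs and the second was not, can be compared base by base. RefSeq promoter windows (GRCm38.p6, 250 bases before to 50 after the annotated start) were matched for 26 of 36 members. An ISRE core, spelled GAAANNGAAA and searched on both strands, was found in a window of 13 of these 26 members (50.0%), against 3.99% of all 27025 genes with a window. A GAS core, spelled TTCNNNGAA, which reads the same pattern on both strands, was found for 4 of 26 (15.4%), against 9.55% of all genes. Both motifs share the letters GAA, so that matches may overlap. The following are the 200 bases before the RefSeq annotated start, 5′ to 3′ on the strand of the gene, with ISRE cores in capitals (as the reverse complement where the core lies on the opposite strand). RefSeq starts can differ from the gene positions used elsewhere here, and the stretches of Irf7, Ifit1 and Oas3 reach into those positions.
Isg15, chr4:156200819-156201018, minus strand: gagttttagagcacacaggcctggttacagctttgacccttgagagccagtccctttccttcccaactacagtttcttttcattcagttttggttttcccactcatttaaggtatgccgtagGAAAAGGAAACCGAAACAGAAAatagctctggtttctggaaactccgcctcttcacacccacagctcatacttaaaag
Ifit1, chr19:34640689-34640888, plus strand: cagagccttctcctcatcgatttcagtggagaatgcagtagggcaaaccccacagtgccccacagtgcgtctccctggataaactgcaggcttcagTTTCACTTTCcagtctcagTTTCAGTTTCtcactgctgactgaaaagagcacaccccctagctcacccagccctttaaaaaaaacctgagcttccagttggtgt
Ifit3, chr19:34583329-34583528, plus strand: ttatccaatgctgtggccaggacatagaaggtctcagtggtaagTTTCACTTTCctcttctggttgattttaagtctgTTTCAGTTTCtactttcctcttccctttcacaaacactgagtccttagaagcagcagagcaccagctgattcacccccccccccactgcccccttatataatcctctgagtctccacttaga
Ifit3b, chr19:34607757-34607956, plus strand: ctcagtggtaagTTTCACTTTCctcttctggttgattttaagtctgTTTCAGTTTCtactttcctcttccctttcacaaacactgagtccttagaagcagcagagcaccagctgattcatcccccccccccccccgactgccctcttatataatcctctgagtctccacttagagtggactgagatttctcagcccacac
Oas3, chr5:120777660-120777859, minus strand: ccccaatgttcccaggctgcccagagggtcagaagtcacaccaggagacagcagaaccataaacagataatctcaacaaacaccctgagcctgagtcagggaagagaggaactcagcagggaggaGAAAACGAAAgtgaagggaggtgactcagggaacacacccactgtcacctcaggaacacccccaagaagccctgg
Irf7, chr7:141266425-141266624, minus strand: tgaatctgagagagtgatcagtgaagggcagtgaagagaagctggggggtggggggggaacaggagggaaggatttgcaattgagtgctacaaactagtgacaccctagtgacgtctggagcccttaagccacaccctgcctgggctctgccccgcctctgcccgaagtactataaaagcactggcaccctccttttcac

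The Isg15 stretch holds 3 overlapping cores that begin 78, 72 and 66 bases before the start. Ifit1 has 2, at 104 and 85 bases. Ifit3 has 2, at 156 and 122 bases, and Ifit3b has the same pair of cores, placed 32 bases farther from its annotated start, at 188 and 154 bases. Over 260 aligned bases the windows of Ifit3 and Ifit3b were 99.2% identical. Oas3 has 1 core at 75 bases, and none of these letters stands in the Irf7 window. The 13 members with a core in the window had a median log2 fold change between HRS and contralateral legs of 1.87 (range 0.82 to 3.32) and the 13 without had 1.78 (1.06 to 2.47), so that these ranges overlapped. A match describes letters only and was not tested for binding.

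HRS legs were compared first with contralateral legs, which asks how ISG transcripts differ between the HRS-injected and the PBS-injected muscle of an animal. Of the 36 ISGs, 34 were higher in HRS legs by the test across all genes (limma, adjusted p below 0.05 and log2 fold change above 1) and none was lower, where 16.9% of all 16414 genes were called higher. The median log2 fold change was 1.88 over the 36 ISGs (range 0.08 to 3.32) and 0.08 over all tested genes. For 34 ISGs the lowest HRS leg exceeded the highest contralateral leg, which held for 18.3% of all genes. Ifit3b and Ifi27l2a were the exceptions in both counts. Within animals, all 5 mice had the higher value on the HRS side for 34 of 36 ISGs, against 26.3% of all genes, and each of the 34 had p = 0.062 in the exact two-sided sign-flip permutation test, the smallest p that 5 mice allow.

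**Figure D1:**
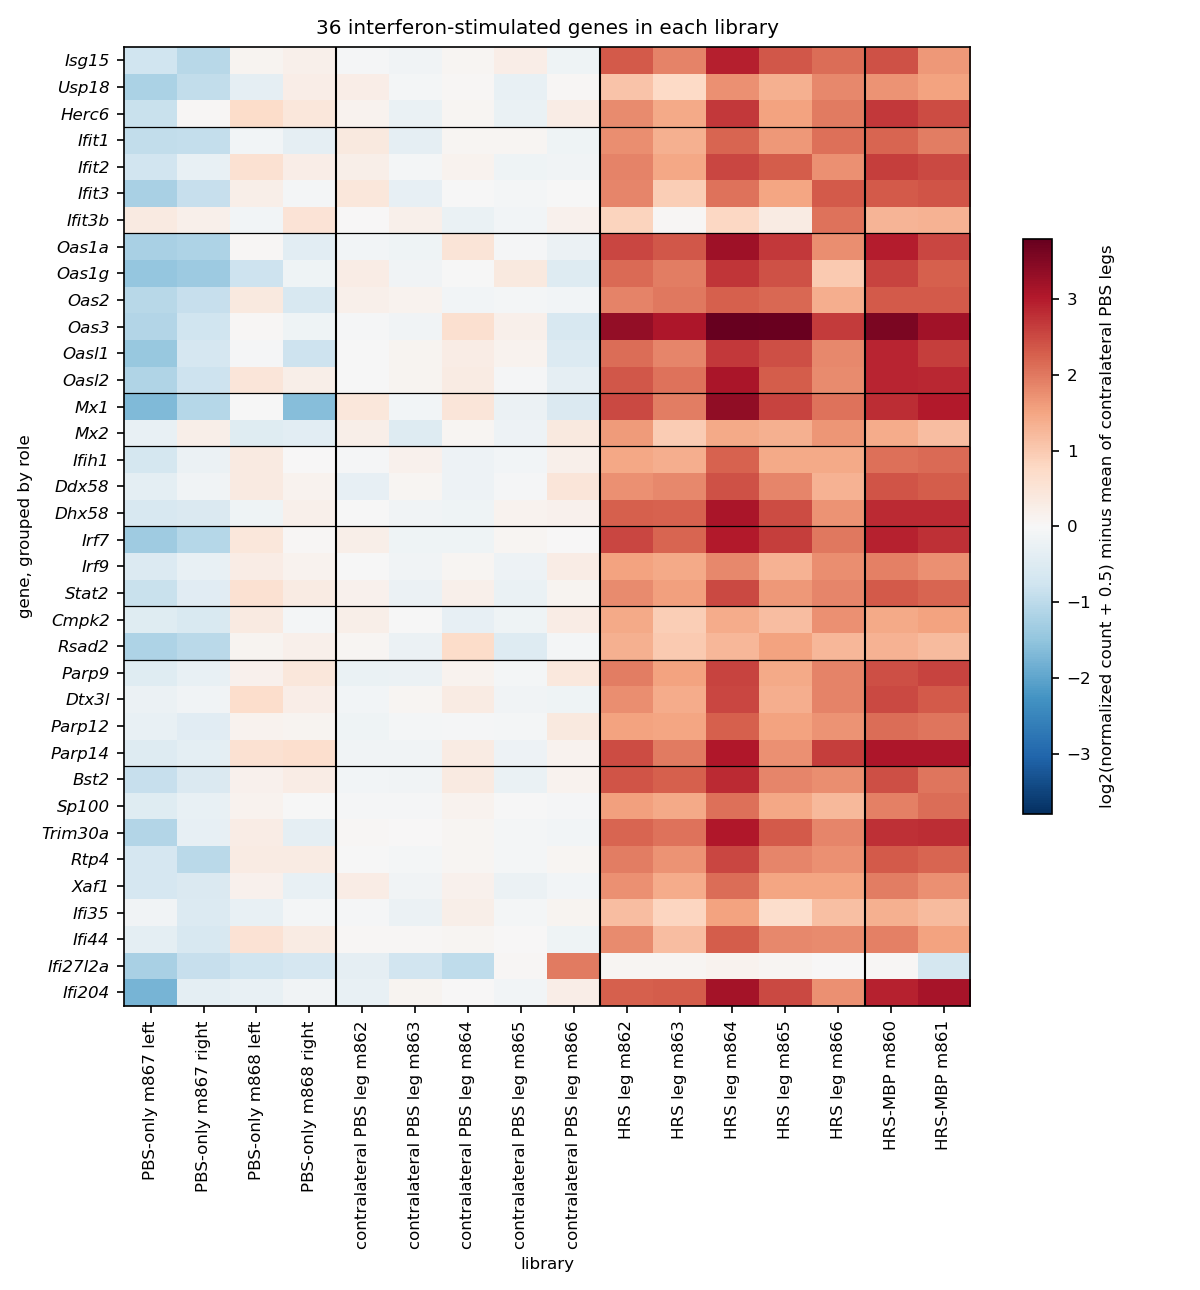
Level of each of the 36 ISGs (rows, grouped by role) in each of the 16 libraries (columns), as log2(normalized count + 0.5) minus the mean of the contralateral PBS legs. The 5 HRS legs and 2 HRS-MBP libraries are red in nearly every row, except that the row of Ifi27l2a is pale in all of them and that of Ifit3b is pale in the HRS legs other than m866, and both legs of PBS-only mouse m867 are blue in most rows.

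Against PBS-only mice, which never received HRS in either leg, 34 of 36 ISGs were again called higher in HRS legs and none lower, with 18.9% of all genes called higher. The median log2 fold change was 2.01 (range 0.58 to 3.82), against 0.15 over all genes. For 35 of 36 ISGs all 5 HRS legs exceeded all 4 PBS-only legs, against 26.6% of all genes, and Ifit3b was the exception. These comparisons share the 5 HRS legs and are given side by side, not as support for each other. In the sentences that follow, values are normalized counts in the order m862, m863, m864, m865, m866 for both legs, m867 left, m867 right, m868 left, m868 right for PBS-only mice, and m860, m861 for HRS-MBP, and fold changes are on the scale of log2(normalized count + 0.5) with the standard error (SE).

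ISG15 is a ubiquitin-like protein that is attached to other proteins, HERC6 is its main ligase in mice, and USP18 removes ISG15 and restrains signalling at IFNAR2. All 3 genes were called higher in HRS legs in both comparisons. Isg15 (chromosome 4) stood at 19.2, 14.1, 29.9, 19.8 and 16.6 in HRS legs and 3.36, 3.08, 3.65, 4.23 and 3.04 in contralateral legs. It stood at 1.82, 1.39, 3.78 and 4.0 in PBS-only legs and 20.6 and 11.9 in HRS-MBP. Every HRS leg lay above every PBS leg, and m864 was highest. The log2 fold change was 2.33 (SE 0.25, adjusted p = 6.23e-06) against contralateral legs and 2.71 (SE 0.27, adjusted p = 2.89e-06) against PBS-only mice. Usp18 (chromosome 6), which changed least of the 3 against contralateral legs, gave 7.66, 5.99, 12.3, 9.38 and 13.2 in HRS legs and 4.07, 3.2, 3.51, 2.68 and 3.47 in contralateral legs. PBS-only legs gave 1.17, 1.51, 2.54 and 4.12 and HRS-MBP 12 and 10.6 for Usp18. Groups did not overlap here either, but m866 and not m864 was the highest HRS leg. Usp18 rose by 1.35 (SE 0.26, adjusted p = 0.000627) against contralateral legs and by 1.91 (SE 0.27, adjusted p = 5.86e-05) against PBS-only mice. The call of Usp18 against contralateral legs was lost at 0.93 with quantile normalization. Herc6 rose by 1.88 (SE 0.27, adjusted p = 6.67e-05) against contralateral legs.

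IFIT proteins bind viral RNA that lacks host-type cap methylation and block its translation, and their genes lie in a row on chromosome 19. Ifit1, Ifit2 and Ifit3 were called higher in both comparisons and Ifit3b in neither. Ifit2, which changed most of the 4 against contralateral legs, was at 34.1, 25.3, 54.3, 45.4 and 30.7 in HRS legs and 10.3, 8.49, 9.84, 7.91 and 8.02 in contralateral legs. PBS-only mice had 5.18, 7.13, 13.4 and 10.7 and HRS-MBP had 56.7 and 52.4 for Ifit2. The groups did not overlap, and the legs of m868 lay above those of m867. Ifit2 differed by 1.98 (SE 0.23, adjusted p = 1.07e-05) from contralateral legs and by 2.03 (SE 0.24, adjusted p = 1.36e-05) from PBS-only mice. Ifit1 rose by 1.82 (SE 0.20, adjusted p = 6.34e-06) and Ifit3 by 1.73 (SE 0.28, adjusted p = 0.000174) against contralateral legs.

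Ifit3b (chr19:34607970-34613401), a near-copy of Ifit3, measured 19.4, 11, 18.6, 13.2 and 45.7 in HRS legs and 10.6, 12.1, 8.73, 9.67 and 11.9 in contralateral legs. It measured 13.5, 12.2, 9.71 and 15.3 in PBS-only legs and 26.5 and 27.3 in HRS-MBP. The HRS leg of m866 was far above the other 4 HRS legs, the HRS leg of m863 lay below its own contralateral leg, and HRS and PBS legs overlapped. The log2 fold change was 0.82 (SE 0.27, adjusted p = 0.0181) against contralateral legs and 0.58 (SE 0.29, adjusted p = 0.0965) against PBS-only mice, with 95% intervals of 0.23 to 1.40 and -0.04 to 1.2. Without both legs of m866 it was 0.55 (adjusted p = 0.0132) against contralateral legs, and without the HRS leg of m863 it was 1.01 (adjusted p = 0.00656, called). With limma-voom Ifit3b was called in both comparisons, at 1.28 and 1.01. Ifit3 itself stood at 67.7, 36.1, 78.6, 53.3 and 95.8 in HRS legs and 25.2, 14.8, 18.3, 17.5 and 18.4 in contralateral legs, with m866 highest there too. The annotated transcripts of the pair are 98.0% identical over 1697 aligned bases, with an identical run of 329 bases, so that the counting may have moved reads between them, which was not tested.

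OAS enzymes make 2′-5′-linked oligoadenylates in response to double-stranded RNA and thereby activate RNase L, whereas the related OASL1 lacks this activity. All 6 genes lie on chromosome 5 and all 6 were called higher in both comparisons, with a median log2 fold change of 2.26 against contralateral legs and 2.96 against PBS-only mice. Oas3 (chr5:120753098-120777661), the member with the largest change of all 36, was at 17.6, 14.7, 24.5, 23.5 and 10.8 in HRS legs and 1.2, 1.14, 2.22, 1.56 and 0.673 in contralateral legs. It was at 0.323, 0.57, 1.37 and 1.09 in PBS-only legs and 20.8 and 15.9 in HRS-MBP. The lowest HRS leg, m866, still exceeded the highest PBS leg, and the leg difference of Oas3 varied little, from 3.20 to 3.54 on the log2 scale over the 5 mice. Oas3 rose by 3.32 (SE 0.28, adjusted p = 1.75e-06) against contralateral legs and by 3.82 (SE 0.29, adjusted p = 9.17e-07) against PBS-only mice. Oas2, with the smallest change of the family, gave 23.5, 25.7, 31, 29.2 and 16.6 in HRS legs and 6.92, 6.61, 5.54, 5.68 and 5.55 in contralateral legs. PBS-only legs gave 2.67, 3.1, 7.95 and 3.76 and HRS-MBP 32.3 and 32 for Oas2. The left leg of m868 stood above all contralateral legs for Oas2, but below every HRS leg. Oas2 rose by 1.94 (SE 0.22, adjusted p = 1.07e-05) and 2.48 (SE 0.24, adjusted p = 2.40e-06) in the respective comparisons. Oas1a rose by 2.51 (SE 0.28, adjusted p = 6.83e-06), Oas1g by 2.04 (SE 0.31, adjusted p = 9.98e-05), Oasl1 by 2.19 (SE 0.24, adjusted p = 7.01e-06) and Oasl2 by 2.32 (SE 0.28, adjusted p = 1.74e-05) against contralateral legs. Oas1a and Oas1g transcripts are 97.5% identical over 1860 aligned bases, so that their split is uncertain, and Oas1g averaged 0.471 in PBS-only legs, under the filter value.

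MX proteins are dynamin-like GTPases that trap viral nucleocapsids, and C57BL/6 mice carry defective alleles of both, so that transcript and protein function are separate matters here. Mx1 (chr16:97447035-97462907) stood at 12.4, 8.26, 23.1, 12.8 and 8.85 in HRS legs and 2.53, 1.6, 2.59, 1.44 and 1.05 in contralateral legs. It stood at 0.202, 0.57, 1.76 and 0.243 in PBS-only legs and 15.3 and 17.7 in HRS-MBP. Groups did not overlap between HRS and PBS, and the value of the right leg of m868 lies under the 0.364 that 3 reads are worth in that shallow library. Mx1 rose by 2.49 (SE 0.33, adjusted p = 3.28e-05) against contralateral legs and by 3.58 (SE 0.35, adjusted p = 2.54e-06) against PBS-only mice. Mx2, annotated as a polymorphic pseudogene, was low throughout, at 3.47, 2.04, 3.06, 2.83 and 3.68 in HRS legs and 1.03, 0.44, 0.878, 0.647 and 1.18 in contralateral legs. PBS-only legs had 0.566, 1.02, 0.456 and 0.485 and HRS-MBP 2.94 and 2.43 for Mx2. HRS legs were again above all PBS legs, and m866 was the highest of them. Mx2 rose by 1.41 (SE 0.20, adjusted p = 5.40e-05) and 1.64 (SE 0.21, adjusted p = 2.26e-05) in the respective comparisons, but its log2 fold change fell to 0.82 and 0.93 with a pseudocount of 2, which ended both calls.

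RIG-I (gene Ddx58), MDA5 (Ifih1) and LGP2 (Dhx58) are cytosolic sensors of viral RNA, and their transcripts are themselves induced by interferon. All 3 were called higher in both comparisons. Dhx58, with the largest change of the 3, was at 14.6, 14.5, 26.7, 17.1 and 9.88 in HRS legs and 2.65, 2.37, 2.31, 3.0 and 3.07 in contralateral legs. It was at 1.58, 1.65, 2.35 and 3.15 in PBS-only legs and 21.9 and 22 in HRS-MBP. HRS legs all lay above PBS legs, with m864 highest and m866 lowest. Dhx58 rose by 2.36 (SE 0.22, adjusted p = 2.04e-06) and 2.64 (SE 0.23, adjusted p = 1.68e-06). Ifih1, with the smallest, gave 25, 23.7, 43.3, 24.8 and 24.5 in HRS legs and 8.43, 9.92, 7.57, 8.15 and 10.2 in contralateral legs. For Ifih1, PBS-only legs gave 5.38, 7.42, 11.3 and 8.86 and HRS-MBP 38.7 and 40.8. For Ifih1 the HRS leg of m864 stood apart above the other HRS legs, which were close together. Ifih1 rose by 1.59 (SE 0.19, adjusted p = 1.33e-05) and 1.72 (SE 0.20, adjusted p = 1.03e-05), and Ddx58 by 1.83 (SE 0.19, adjusted p = 4.99e-06) against contralateral legs.

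IRF7 is the transcription factor that amplifies interferon production, and STAT2 and IRF9 are subunits of the complex that binds ISREs. Irf7, Irf9 and Stat2 were all called higher in both comparisons. Irf7 (chr7:141262706-141266481) was at 93.2, 74.7, 130, 99.5 and 64.5 in HRS legs and 18.5, 14, 14.1, 16.8 and 16 in contralateral legs. It was at 5.86, 7.22, 21.6 and 16.4 in PBS-only legs and 122 and 110 in HRS-MBP. The groups did not overlap, and m868 legs stood at or near the contralateral range while m867 legs lay below it. Irf7 rose by 2.47 (SE 0.28, adjusted p = 1.03e-05) and 2.95 (SE 0.30, adjusted p = 3.54e-06). Irf9, with the smallest change of the 3, gave 40.3, 38.1, 49.9, 34.9 and 47.3 in HRS legs and 13.5, 12.5, 14.4, 11.9 and 16.8 in contralateral legs. For Irf9, PBS-only legs gave 9.34, 11.2, 16.8 and 15.2 and HRS-MBP 53.1 and 46.7. Its HRS legs were evenly raised, with leg differences of 1.47 to 1.76 over the 5 mice. Irf9 rose by 1.57 (SE 0.15, adjusted p = 2.88e-06) and 1.67 (SE 0.16, adjusted p = 2.66e-06), and Stat2 by 1.87 (SE 0.24, adjusted p = 2.46e-05) against contralateral legs. Irf9 overlaps Rnf31 on the same strand and Irf7 overlaps Phrf1 on the other, and the use of strand in the authors' counting is not given in the sources used here.

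**Figure D2:**
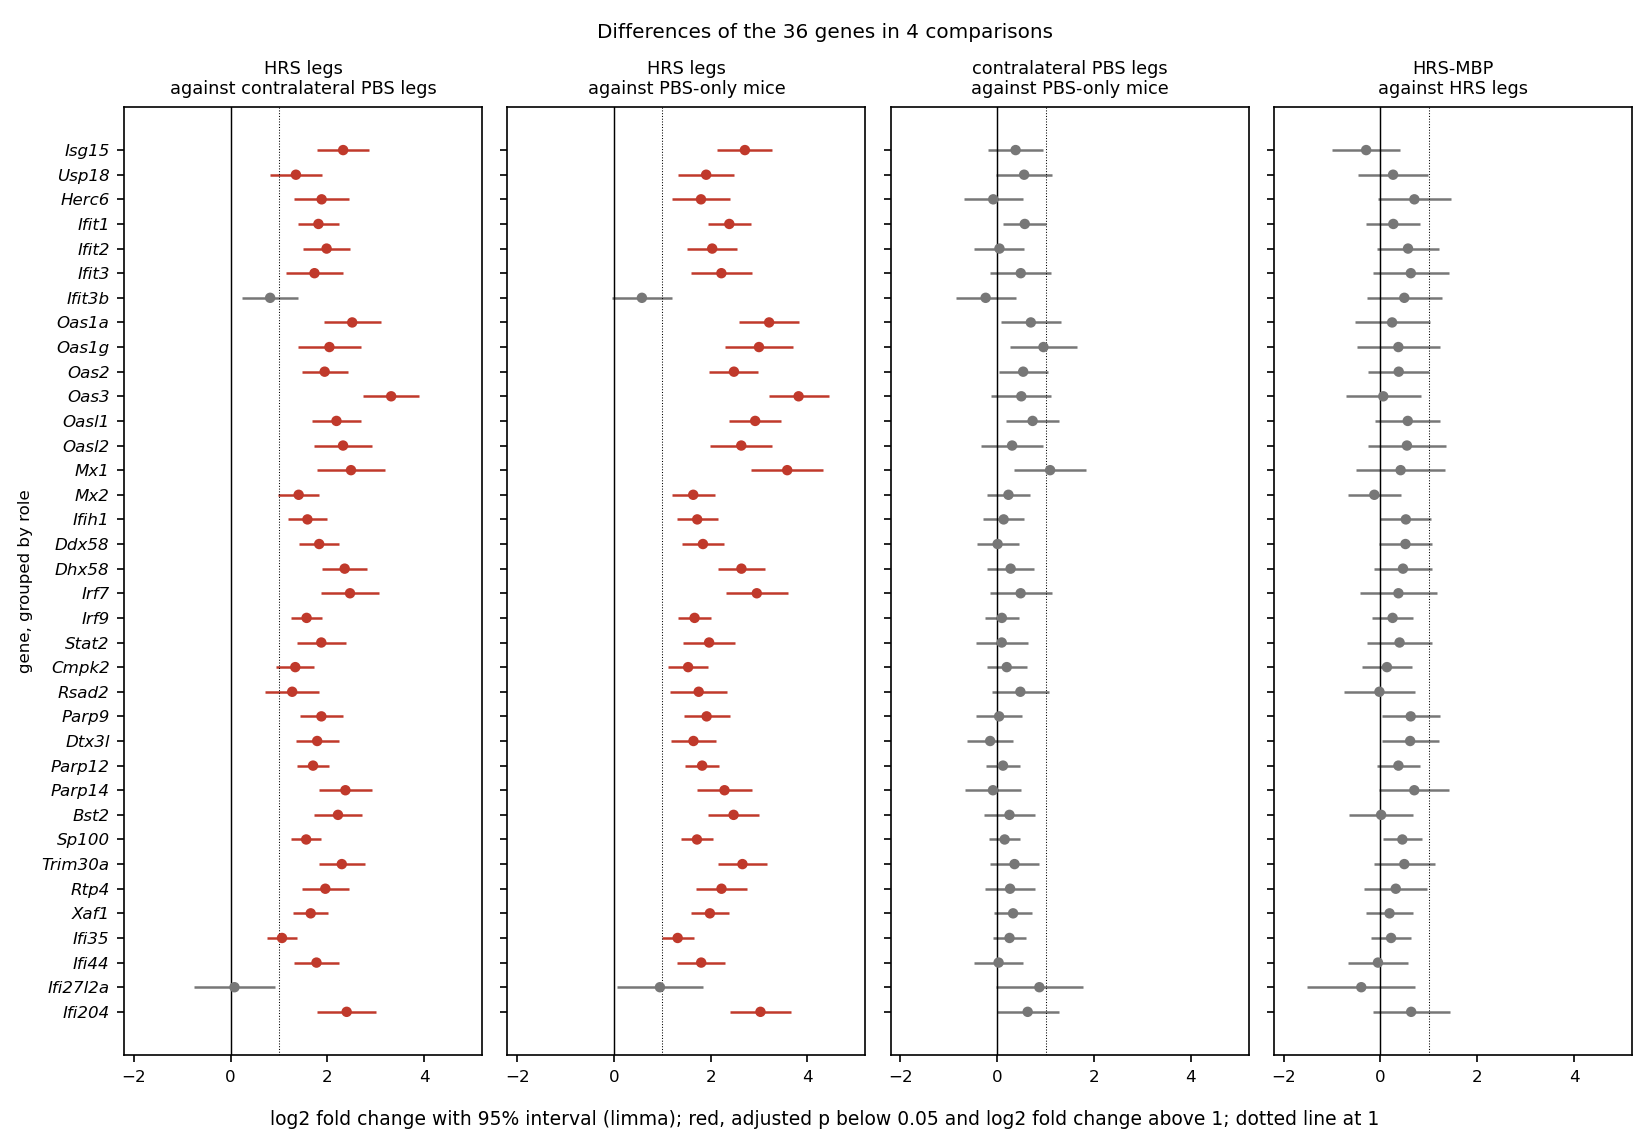
Log2 fold change (x axis, with 95% interval) of each ISG (y axis) in 4 comparisons from the limma fit, in red where called higher. In the left 2 panels 34 of 36 ISGs are red, and in the right 2 panels (contralateral against PBS-only legs, HRS-MBP against HRS legs) none is.

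CMPK2 is a mitochondrial nucleotide kinase and viperin (gene Rsad2) is a radical-SAM enzyme that makes a chain-terminating nucleotide, and their genes neighbour each other on chromosome 12. Both were called higher in both comparisons, with the smallest group median against contralateral legs, 1.30. Cmpk2 stood at 21.9, 15.3, 21.2, 18.2 and 26.7 in HRS legs and 9.17, 7.6, 6.19, 6.79 and 9.42 in contralateral legs. It stood at 5.54, 4.97, 9.84 and 7.28 in PBS-only legs and 21.7 and 23 in HRS-MBP. All HRS legs exceeded all PBS legs, and m866 was highest. Cmpk2 rose by 1.34 (SE 0.18, adjusted p = 4.49e-05) and 1.53 (SE 0.19, adjusted p = 2.17e-05). Rsad2 gave 31.5, 24.6, 29.6, 36 and 30.0 in HRS legs and 12.9, 10.4, 20.1, 8.5 and 11.5 in contralateral legs. For Rsad2, PBS-only legs gave 5.09, 5.74, 13 and 14 and HRS-MBP 30.9 and 28.5. The contralateral leg of m864 was the highest PBS leg, which left this mouse with the smallest leg difference, 0.55, against 1.2 to 2.02 in the others. Rsad2 rose by 1.27 (SE 0.26, adjusted p = 0.00114) and 1.75 (SE 0.28, adjusted p = 0.000148).

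PARP9 and the ubiquitin ligase DTX3L form a complex, and PARP12 and PARP14 are mono-ADP-ribosyltransferases of the same interferon-induced family. All 4 were called higher in both comparisons. Parp14 (chromosome 16), which changed most, was at 95.8, 67, 142, 56.7 and 107 in HRS legs and 15.4, 15.2, 20.7, 14.6 and 18.5 in contralateral legs. It was at 11.7, 12.7, 25.4 and 26.3 in PBS-only legs and 144 and 145 in HRS-MBP. The lowest HRS leg, m865, was above the highest PBS leg. Parp14 rose by 2.37 (SE 0.26, adjusted p = 6.11e-06) and 2.29 (SE 0.27, adjusted p = 1.29e-05). Parp12, which changed least of the 4 against contralateral legs, gave 36.8, 35.9, 60.9, 36.4 and 41.4 in HRS legs and 11.1, 11.6, 11.9, 11.8 and 16 in contralateral legs. For Parp12, PBS-only legs gave 10.0, 9.09, 13.6 and 13.2 and HRS-MBP 55.1 and 52.3. For Parp12 the HRS leg of m864 and the contralateral leg of m866 each stood above the rest of its group. Parp12 rose by 1.70 (SE 0.16, adjusted p = 2.10e-06) and 1.82 (SE 0.17, adjusted p = 1.95e-06). Parp9 rose by 1.88 (SE 0.21, adjusted p = 8.94e-06) and Dtx3l by 1.79 (SE 0.21, adjusted p = 1.19e-05) against contralateral legs, and these genes overlap on opposite strands.

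The remaining 9 ISGs include tetherin (gene Bst2), which holds virions at the cell surface, the nuclear body protein Sp100, and Ifi204, of a family that includes DNA sensors. Of these, 8 were called higher in both comparisons and Ifi27l2a in neither. Ifi204 (chr1:173747293-173766943), with the largest change of the 9, stood at 51.2, 52.5, 95.1, 59.8 and 35.4 in HRS legs and 8.23, 11.1, 10.4, 9.5 and 12.1 in contralateral legs. It stood at 2.65, 7.8, 8.32 and 9.3 in PBS-only legs and 80.6 and 93.8 in HRS-MBP. HRS legs were above all PBS legs, with m864 highest and m866 lowest, and the left leg of m867 lay below all other libraries. Ifi204 rose by 2.40 (SE 0.28, adjusted p = 1.32e-05) and 3.03 (SE 0.30, adjusted p = 2.93e-06), and belongs to a family of similar genes among which reads may be split. Against contralateral legs, Trim30a rose by 2.30 (SE 0.22, adjusted p = 2.87e-06), Bst2 by 2.22 (SE 0.23, adjusted p = 5.06e-06), Rtp4 by 1.96 (SE 0.23, adjusted p = 1.25e-05), Ifi44 by 1.78 (SE 0.22, adjusted p = 2.14e-05), Xaf1 by 1.66 (SE 0.17, adjusted p = 4.44e-06) and Sp100 by 1.56 (SE 0.15, adjusted p = 2.10e-06). Ifi35 rose by 1.06 (SE 0.15, adjusted p = 5.14e-05), the smallest called change, which ended as a call at 0.94 to 0.99 without the HRS leg of m864, with a pseudocount of 2 or with median-of-ratios scaling, and at 0.87 with quantile normalization.

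Ifi27l2a (chr12:103442167-103443680), which encodes a small hydrophobic interferon-induced protein, behaved unlike the rest. Its HRS legs were nearly equal, at 19.9, 19.7, 20.6, 19.8 and 18.8, whereas contralateral legs were at 14.7, 11.1, 9.28, 19.3 and 75.2. It was at 7.68, 9.98, 10.8 and 11.9 in PBS-only legs and 19.2 and 11.5 in HRS-MBP. The contralateral leg of m866 was the highest library of all 16, above its own HRS leg, while the other 4 contralateral legs lay below their HRS legs. The log2 fold change was 0.08 (SE 0.40, adjusted p = 0.871) against contralateral legs, with a 95% interval of -0.77 to 0.93, and 0.95 (SE 0.42, adjusted p = 0.062) against PBS-only mice. Without the contralateral leg of m866 it was 0.58 (adjusted p = 0.0190) against contralateral legs, which was not called under the fold threshold. With limma-voom the difference from PBS-only mice was 1.33 (adjusted p = 0.0364, called). The exact two-sided sign-flip permutation test over 5 mice gave p = 0.938 for Ifi27l2a and p = 0.12 for Ifit3b, each higher in the HRS leg of 4 of 5 mice.

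**Figure D3:**
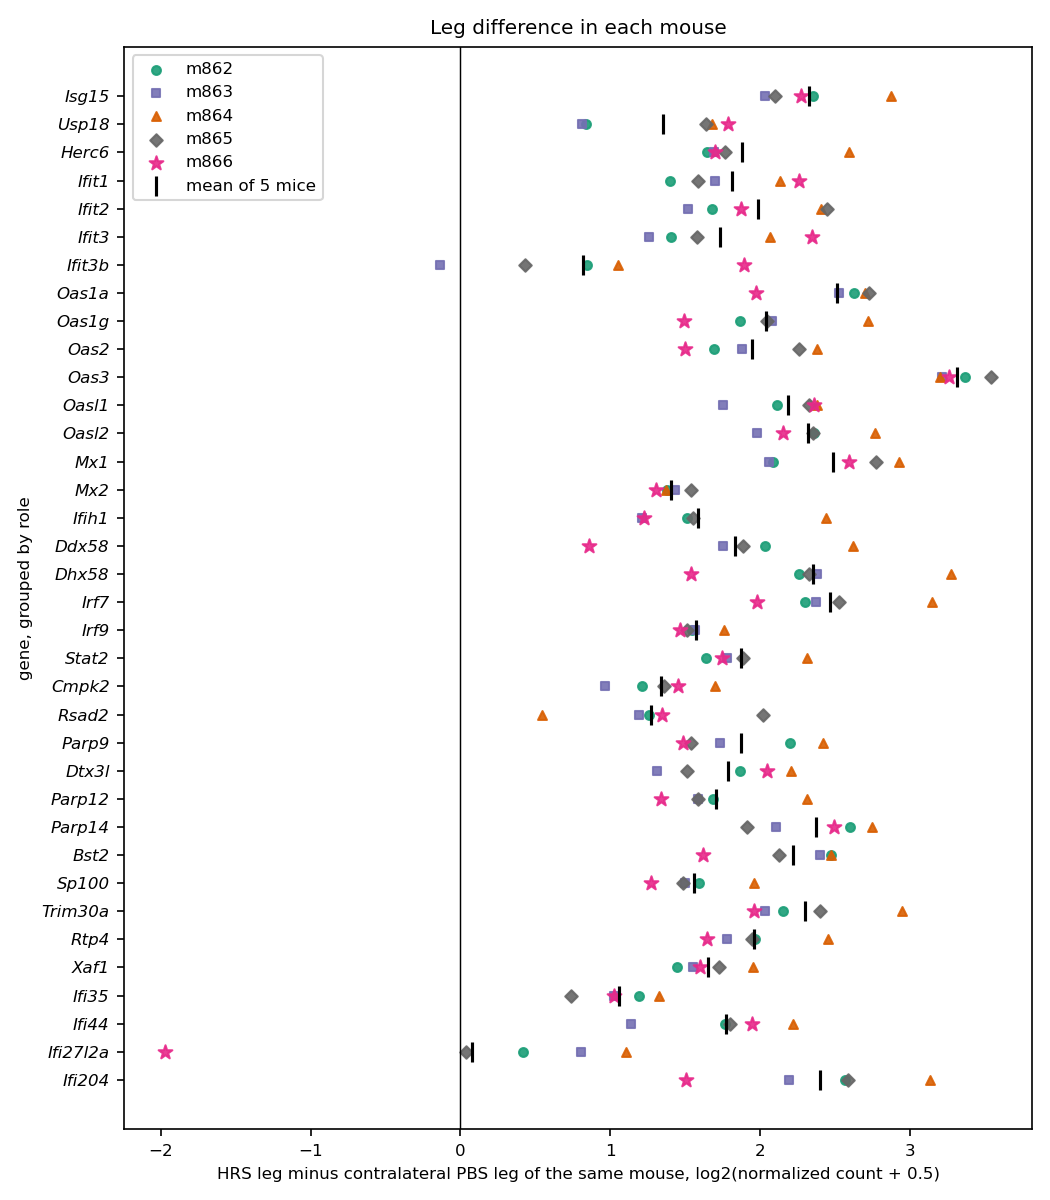
Difference in log2(normalized count + 0.5) between the HRS leg and the contralateral PBS leg of the same mouse (x axis) for each ISG (y axis), with 1 symbol per mouse and a bar at the mean of 5 mice. Of the 36 ISGs, 34 have all 5 mice above 0, and the lowest point, at -1.97, is Ifi27l2a in m866.

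Levels were compared between genes only per kilobase of exon. In HRS legs, Bst2 had the highest mean per kilobase, 71.7 normalized counts, followed by Ifi27l2a with 42.7, Ifit3 with 38.0 and Isg15 with 26.4, and Mx2 had the lowest, 0.835. In contralateral legs Ifi27l2a was first with 56.0 (29.4 without m866), then Bst2 with 14.6 (14.3 without m866), and the lowest were Oas3 with 0.193 and Mx2 with 0.231 (0.218 and 0.207 without m866).

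The HRS legs did not rank alike over the 36 ISGs. The HRS leg of m864 was the highest of the 5 for 30 ISGs, and its median ratio to the mean of the other 4 was 1.61. It also had the highest leukocyte sum, 1287. The lowest HRS leg was m863 for 17 ISGs, m866 for 14 and m865 for 5. Among the 2781 genes called higher in HRS legs, m864 was highest for 70.6% and m866 lowest for 90.1%. The median ratio of m866 to the mean of the other 4 HRS legs was 0.392 over these genes and 0.848 over the 36 ISGs, a difference that was not tested. It lay above that mean for 11 of 36 ISGs, against 2.95% of the 2781 genes.

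All 6 OAS genes of m866 were below the other 4 HRS legs, at 0.361 (Oas1g) to 0.703 (Oasl1) of their mean, and so were Dhx58, Ddx58, Ifi204, Irf7, Trim30a, Bst2, Sp100 and Ifi27l2a. Ifit3b, Ifit3, Usp18, Cmpk2 and Mx2 were above all 4, at 2.93, 1.63, 1.49, 1.39 and 1.29 times their mean. The sum over the 36 ISGs was 1169 in m866, within the 1021 to 1833 of the other HRS legs. A sum over 26 genes skewed to interferon-gamma was 6895 in m866, within 3341 to 15062. The sum over 47 further ISGs was lower in m866, at 1834 against 2304 to 4162, as were those over 14 nucleic acid sensing genes, at 320.0 against 480.4 to 920.0, and 6 receptor genes, at 217 against 242 to 387. Sums over 10 signal transducers, 894 in m866, and 11 negative regulators, 618, lay within the 589 to 1495 and 615 to 1364 of the others. The macrophage and fibroblast marker sums of m866, 1250 and 2414, also lay below the 2931 to 6326 and 13945 to 24238 of the others. So did its monocyte, T cell, neutrophil and conventional dendritic cell sums. Its NK cell sum, 16.3, and its B and plasma cell sum, 50.4, lay within 15.0 to 49.7 and 20.3 to 53.1. Its endothelial sum, 382, lay above 328 to 374. Its plasmacytoid dendritic cell sum, which includes Cox6a2, a gene that muscle also expresses, was 562, above 245 to 359. Its mitochondrial share was 11.1% of normalized counts, close to the 9.69% to 11.2% of contralateral legs, and its Ifit3b level was the highest of all 16 libraries. The part of its cell content in these ratios was not tested. Without both legs of m866, 34 of 36 ISGs were called against contralateral legs, and 3474 of all 16414 genes were called higher.

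**Figure D4:**
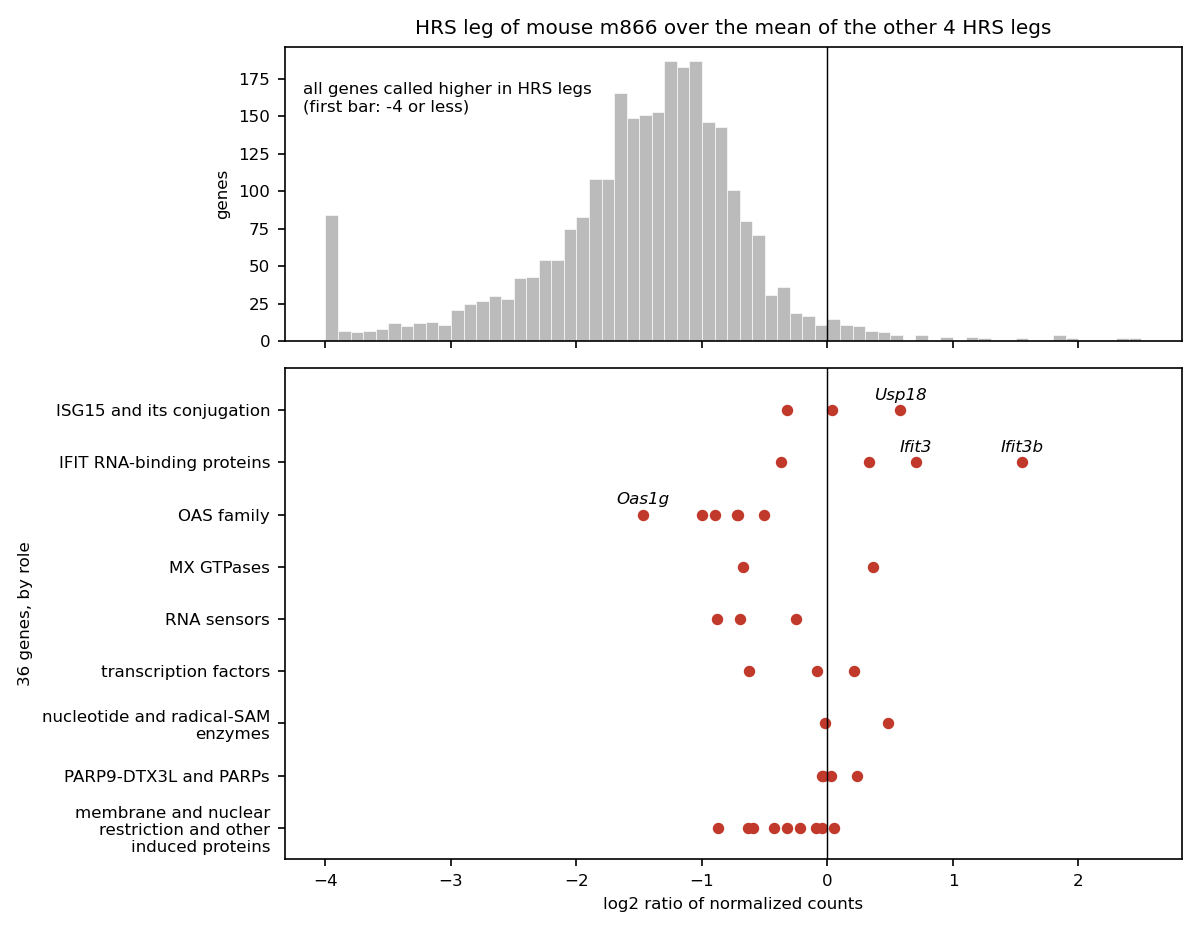
Log2 ratio of the HRS leg of m866 to the mean of the other 4 HRS legs (x axis), as a histogram over the 2781 genes called higher in HRS legs (top) and as points for the 36 ISGs by role (bottom). Most of the histogram lies below 0, and 11 ISGs lie above 0, Ifit3b farthest.

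The contralateral PBS legs were compared with PBS-only mice, which asks whether the muscle opposite an injected leg differs from muscle of animals without HRS. None of the 36 ISGs was called by limma at an adjusted p below 0.05, with 0.0% of all genes called higher, and limma-voom also called none. The median log2 difference was 0.27 (range -0.24 to 1.09), against 0.07 over all genes, and 32 of 36 ISGs had a positive difference, against 65.5% of all genes. At an unadjusted p below 0.05 there were 6 ISGs, Ifit1, Oas1a, Oas1g, Oas2, Oasl1 and Mx1, against 5.5% of all genes. This number was 2 without the left leg of m867, 4 without its right leg, 13 without the left leg of m868, 1 and 22 without both legs of m867 or m868, and 1 with limma-voom. The same number over all genes was 902 in the full fit and 930, 827, 606, 1007, 593 and 533 in these. Mx1 had the largest difference, 1.09 (SE 0.35, adjusted p = 0.79), followed by Oas1g with 0.96 (SE 0.33, adjusted p = 0.807), and Ifit3b the lowest with -0.24 (SE 0.29, adjusted p = 1.0) before Dtx3l with -0.14 (SE 0.22, adjusted p = 1.0). The 95% interval for Mx1 was 0.36 to 1.83.

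These differences moved with the PBS-only mouse used. For 30 of 36 ISGs both legs of m868 were above both legs of m867, against 10.0% of all genes, and the median ratio of m868 to m867 was 1.90 over the ISGs and 0.942 over all genes. Irf7 averaged 6.54 in m867 and 19 in m868, and Isg15 1.61 and 3.89. Ifit3b and Mx2 were lower in m868 than in m867, by ratios of 0.973 and 0.592. With both legs of m867 left out, the median ISG difference between contralateral and PBS-only legs was -0.12 with 14 of 36 ISGs above 0, and with both legs of m868 left out it was 0.67 with 35 above 0. A mouse difference over 2 animals was not tested, and the shallowest library, the right leg of m868, was on the higher side.

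**Figure D5:**
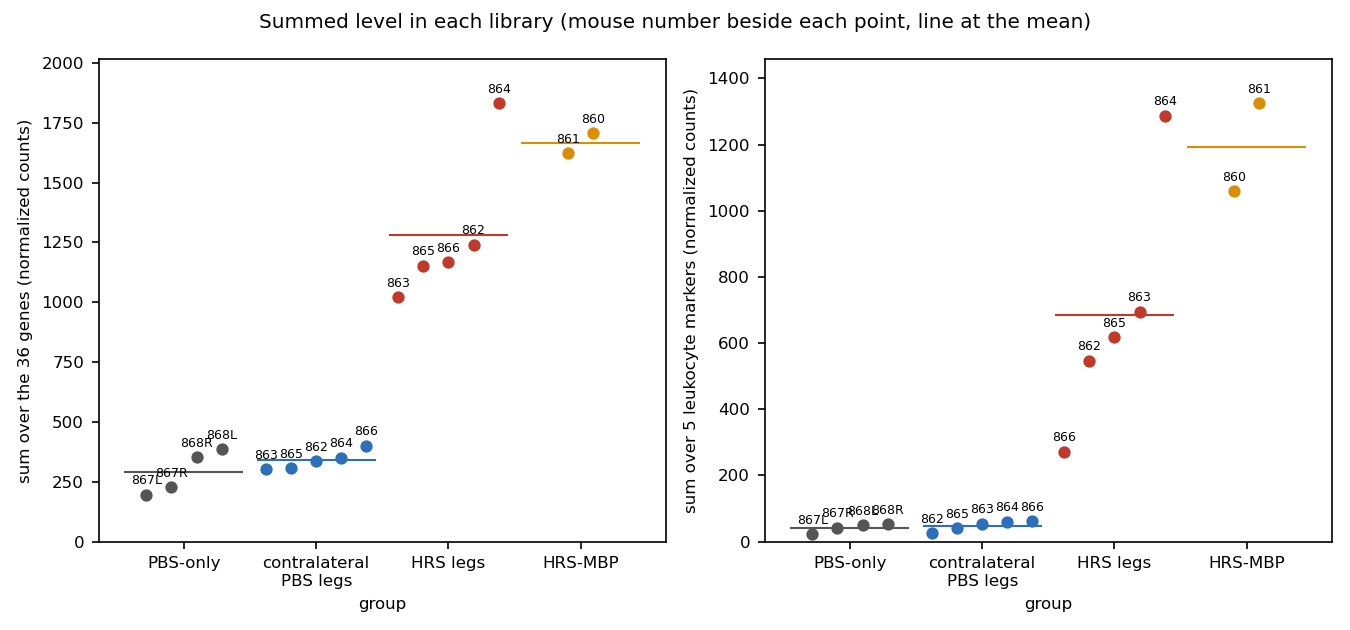
Sum of normalized counts over the 36 ISGs (left) and over 5 pan-leukocyte markers (right) in each library by group, with the mouse number beside each point and a line at the group mean. HRS legs range from 1021 to 1833 on the left and from 271 to 1287 on the right, where m866 is lowest.

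HRS-MBP libraries were compared with PBS-only mice and with HRS legs. Against PBS-only mice, 35 of 36 ISGs were called higher and none lower, with 20.7% of all genes called higher, and the median log2 fold change was 2.50 (range 0.56 to 4.0). Mx1 changed most, by 4.0 (SE 0.45, adjusted p = 7.55e-06), then Oas3 by 3.88 (SE 0.38, adjusted p = 2.84e-06). Ifi27l2a was the ISG not called, at 0.56 (SE 0.55, adjusted p = 0.392). Ifit3b was called here at 1.07 (SE 0.38, adjusted p = 0.0242), a call lost in 9 of the alternative analyses. Against HRS legs, limma called none of the 36, with 0.396% of all genes called higher, and limma-voom none either. The median difference was 0.37 (range -0.40 to 0.70), and 31 of 36 were positive, against 46.0% of all genes. Parp9, Dtx3l and Sp100 were the 3 at an unadjusted p below 0.05, against 14.4% of all genes. This number was 13 without the HRS leg of m864, with 2 of them at an adjusted p below 0.05 but under the fold threshold, 5 without that of m866, 2 without that of m862, 0 without that of m863 or m865 or without m860 or m861, and 7 with limma-voom. Over all genes it was 2371 in the full fit, 3863 without the HRS leg of m864, 578 to 2771 without 1 of the other libraries named and 2011 with limma-voom.

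Herc6 had the largest difference between HRS-MBP and HRS legs, 0.70 (SE 0.36, adjusted p = 0.38), with a 95% interval of -0.06 to 1.46, then Parp14 with 0.70 (SE 0.34, adjusted p = 0.359). Ifi27l2a had the lowest, -0.40 (SE 0.53, adjusted p = 0.755), then Isg15 with -0.30 (SE 0.33, adjusted p = 0.71). With 2 HRS-MBP libraries these intervals are wide, and a missing call does not show equal levels. The doses given for the proteins differ, at 2 to 3 and 3 to 5 mg/mL, as do the labels' accounts of the leg.

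Other genes of the pathway were taken from lists. Among ligands, Ifnz and Ifng were analysed here, with the remaining listed ligand genes not analysed here. Ifnz was at most 0.1 normalized counts in any library, under the filter. Ifng, the type II interferon, was at 1.36, 0.744, 5.3, 0.349 and 1.43 in HRS legs, listed at 0 in all 5 contralateral legs, at 0.243 or less in PBS-only legs and at 2.44 and 3.79 in HRS-MBP. It passed the filter only through the HRS and HRS-MBP libraries, so that a difference was bound to follow. Of 5 tested receptor genes, 4 were called higher in HRS than in contralateral legs. Il10rb, a chain shared with interferon-lambda, rose by 1.78 on the log2 scale, the type I receptor chains Ifnar2 and Ifnar1 by 1.67 and 1.48, and the interferon-gamma receptor chain Ifngr1 by 1.02. Ifngr2, its partner chain, was at -0.48 and not called.

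Of 10 signal transducers, 4 were called higher, from 3.32 for Irf8, a factor of myeloid cells, to -0.08 (not called) for the kinase Jak2. Of 14 nucleic acid sensing genes, 12 were called higher, with the kinase gene Ikbke at 3.83 and the adaptor gene Mavs lowest at -0.58, not called. Of 11 negative regulators, 7 were called higher, with the phosphatase gene Ptpn6 at 3.89 and Ptpn11 lowest at -0.26, not called. Of 47 further ISGs, 42 were called higher (median 1.79 on the log2 scale), from 3.86 for Ms4a4c to 0.18 (not called) for the cap methyltransferase gene Cmtr1. Of 26 genes skewed to interferon-gamma, 25 were called higher (median 3.18). Cxcl9, a chemokine of that response, led at 5.31, and Ido1 was lowest at 0.40, not called. Of the 47 and the 26, 3 and 1 were under the filter value in PBS legs. All these counts stand against the 16.9% of all genes called higher, and they are descriptions.

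Cell-type markers moved in the same comparison. All 6 monocyte, 8 T cell, 6 NK cell and 6 B and plasma cell markers were called higher, as were 9 of 10 macrophage markers with the other, Cd163, lower. Of 5 tested neutrophil markers 5, of 6 conventional dendritic cell markers 4 and of 6 fibroblast markers 4 were called higher, and of 10 muscle fibre markers 5 were called lower. Over all 16414 genes, 16.9% were called higher and 1029 genes were called lower. Markers whose mean over the PBS legs was under the filter value had to be high in HRS or HRS-MBP libraries to be tested, which applied to 6 of 8 T cell, 6 of 6 NK cell, 5 of 6 B and plasma cell, 4 of 5 neutrophil, 1 of 6 monocyte and 1 of 6 conventional dendritic cell markers. Of 7 tested plasmacytoid dendritic cell markers, 5 were called higher and 1, Cox6a2, which muscle also expresses, lower, and 3 of the 7 were under the filter value in PBS legs. The macrophage sum was 1250 to 6326 in HRS legs and 160 to 408 in contralateral legs, and the T cell sum 20.4 to 140 and 1.73 to 3.93. Endothelial markers had 0 of 6 called, with sums of 328 to 382 and 305 to 376. The part of these cell types in the ISG values was not tested.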

How the data were processed

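Directional poly(A) RNA-seq libraries of mouse hamstring muscle were analysed from 1 table of normalized counts per gene that the authors deposited (unit: signal, gene counts after between-library scaling). The submitters' processing notes name STAR 2.7.8a, limma and mm39/GRCm39, whereas 98.98% of matched gene positions in the table equal those of GENCODE M21 (GRCm38), and these positions are printed. Use of strand and treatment of multi-mapping reads in counting are not given in the sources used here. In each library 75.3% to 77.7% of the low values fell on whole steps (tolerance 0.02 of a step, values up to 20 steps), so the values were not treated as reads, depths are approximate, and limma-voom was run on the normalized counts as an alternative only.

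The 16414 genes averaging 0.5 or more were analysed on the log2(normalized count + 0.5) scale in 1 limma 3.58.1 fit (R 4.3.3) over the 4 groups, with Benjamini-Hochberg adjustment over all genes. A gene was called at an adjusted p below 0.05 and an absolute log2 fold change above 1. Adjusted p values in the text are from this limma fit unless an exact test is named, and p values measure the spread between legs. On simulated data for 16414 genes, 200 were changed by 1.5 on the log2 scale, equally up and down. Of these, 89% were recovered for HRS against contralateral legs and 73.5% for HRS-MBP against HRS legs. Against PBS-only mice, 86.5% were recovered for HRS, 74% for HRS-MBP and 85.5% for contralateral legs, and false calls were at most 5. The simulated libraries were independent, without a shared effect of mouse, so that these shares do not cover legs of 1 animal that move together. Leg differences were tested by an exact sign-flip permutation over 5 mice with numpy 2.4.6 (python 3.11.15). HRS and contralateral legs are paired by animal in 5 mice. The correlation of their deviations was -0.37 to 0.16, so that the unpaired fit was used with the block as an alternative. That range does not cover the 4 PBS-only legs, which come from m867 and m868 only and entered the fit as separate libraries. For 30 of 36 ISGs both legs of m868 were above both legs of m867. SE and adjusted p values against PBS-only mice therefore do not measure the spread between animals. Promoter windows were searched with regular expressions, and near-copy transcripts and windows were aligned with Biopython 1.88.

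The 36 members and all lists were chosen with earlier results of these data known. Values in every sample are given for the members with the largest and smallest change between HRS and contralateral legs in each role group, and for members whose call differed between comparisons. Ifit3 was added after its values were seen, as the near-copy of Ifit3b. In pathway lists, the genes with the largest and smallest change are named, and Ifnar1, Ifnar2, Ifngr1, Cd163 and Cox6a2 were added after their values were seen. Alternatives were pseudocounts of 0.125 and 2, no filter, a mean of at least 2, median-of-ratios scaling, quantile normalization, limma-voom, other sample sets, mouse as a random effect or block, averaged legs and leaving out each library.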

Additional observations from a re-analysis of the deposited data

Results flagged for a closer look

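Within the groups of 4 and 5 libraries, 108 sets of ISG values were searched for a library far from the others, judged by its gap over the range of its group on the log2 scale. Chance marks about 1 in 20 such sets, and 7 of 108 were marked. Oas1a stood at 4.38 normalized counts in the contralateral leg of m864, against 2.48 to 2.86 in the other contralateral legs. Ifih1 stood at 43.3 in the HRS leg of m864, against 23.7 to 25.0 in the other HRS legs. Parp12 stood at 60.9 in the HRS leg of m864, against 35.9 to 41.4. In the contralateral leg of m866, Parp12 stood at 16 against 11.1 to 11.9 in the others. Sp100 stood at 21 in the contralateral leg of m864, against 18.2 to 18.6. Ifi44 was lowest in the contralateral leg of m866, at 2.37 against 2.74 to 2.86. Ifi204 was lowest in the left leg of PBS-only mouse m867, at 2.65 against 7.79 to 9.30 in the other PBS-only legs.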

How the results depend on the processing

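The number of ISGs called higher in HRS than in contralateral legs was 32 to 35 over the alternatives, from 32 (pseudocount 2 or quantile normalization) to 35 (limma-voom), and 33 to 35 when leaving out single libraries. Against PBS-only mice it was 33 to 36, and 34 in each fit without 1 library. For HRS-MBP against PBS-only mice it was 33 to 35, and 34 to 35 without single libraries, and for contralateral legs against PBS-only mice and HRS-MBP against HRS legs it was 0 throughout. Without single libraries, 34 to 35 ISGs were higher on the HRS side in every mouse, 34 to 35 did not overlap between HRS and contralateral legs, and 35 did not overlap between HRS and PBS-only legs. With the mouse as a replicate block, the fit paired by animal called 34 ISGs, and 2709 of all genes as higher. For single ISGs, alternatives were followed for all 36 in HRS against contralateral legs and in HRS and HRS-MBP against PBS-only mice, and for the 4 named ones in each of the other comparisons. Of these, 2320 of 2349 values kept direction and call, 18 lost the call, 4 gained it and 7 changed sign. These sign changes were Ifi27l2a in HRS against contralateral legs with quantile normalization (-0.17) and without the contralateral leg of m862 (-0.0023), m863 (-0.10) or m864 (-0.16), within -0.16 to 0.58 over fits without 1 library, Dtx3l in contralateral against PBS-only legs without the left leg of m868 (0.031) or both legs of m868 (0.18), and Isg15 in HRS-MBP against HRS legs without m861 (0.090, and -0.68 without m860), and their cause was not tested. Over all 36 ISGs, the number above 0 in contralateral against PBS-only legs was 32, but 25 without the left leg of m867, 27 without its right leg, 14 without both, and 28 with median-of-ratios scaling or quantile normalization. Leaving out both legs of m866, m867 or m868 was chosen after seeing the data. Genes called higher and lower in HRS against contralateral legs numbered 2781 and 1029, but 2093 and 1632 with quantile normalization and 4312 and 251 with limma-voom, and those lower were 556 without the HRS leg of m864 and 1598 without that of m866. Against PBS-only mice they numbered 3100 and 963, 2164 and 1807, and 4631 and 281, with 586 and 1524 lower without the HRS leg of m864 or m866, and for HRS-MBP they were 3400 and 1671, 2511 and 2800, and 5193 and 510. The median of all genes shifted to 0.48, 0.53 and 0.58 with limma-voom and to -0.16, -0.16 and -0.23 with quantile normalization in these comparisons. Genes called higher between HRS-MBP and HRS legs numbered 65, 4 with only those groups fitted and 533 without the HRS leg of m864. Depth limits values such as Mx1 in the right leg of m868, where 3 reads are worth 0.364 normalized counts.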
